A study of Mus musculus with 8 samples.

Results

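Matrix metalloproteases (MMPs), ADAMTS proteases, the ADAMTS-like proteins and the tissue inhibitors of metalloproteases (TIMPs) were examined in mouse cardiac ventricle. The members were the 51 loci, of 23100 in the deposited gene table, whose name holds an Mmp, Adamts, Adamtsl or Timp symbol. They comprised 23 Mmp, 19 Adamts, 5 Adamtsl and 4 Timp genes. The DKO ventricles came from 4 mice aged 4.5 months that were Sox5fl/fl and Sox6fl/fl and positive for aMHC-Cre. The Ctrl ventricles came from 4 mice of the same age with the same floxed alleles but negative for aMHC-Cre. Sox5 and Sox6 encode SoxD transcription factors, and the aMHC promoter drives Cre in cardiomyocytes, so the other cells of the ventricle keep both genes. Since Ctrl mice lacked Cre, an effect of Cre itself and an effect of the deletion cannot be told apart. The title of the series speaks of pressure overload, but no surgery is named for these mice.

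MMPs are zinc-dependent proteases that cut collagens, proteoglycans and other matrix proteins. Most are secreted as inactive proenzymes, and a membrane-type group is anchored at the cell surface. ADAMTS proteases are secreted, carry thrombospondin repeats, and mature procollagens or cut proteoglycans. ADAMTS-like proteins share the repeats but lack the protease domain, and several bind fibrillin microfibrils. TIMPs bind and block these proteases. In the heart, the balance of the proteases and TIMPs is known for its part in matrix turnover during hypertrophy and fibrosis.

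All levels are the authors' FPKM values (fragments per kilobase of transcript, scaled to the mapped fragments of the library), with 1 value per genotype pooled over its 4 animals. They carry no error per animal, and their depth is unknown. A member was called when Cuffdiff, the authors' test, gave a q of at most 0.05. Sox6 was at 1.69 FPKM in DKO and 3.39 FPKM in Ctrl, with a q of 0.00158 by the authors' deposited table. Sox5 was at 0.497 FPKM in DKO and 0.369 FPKM in Ctrl and was not tested. All 9 cardiomyocyte markers examined were present, with Myl2 at 17014 FPKM in DKO and 20639 FPKM in Ctrl.

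The tested members leaned towards higher levels in DKO ventricles, with a small set of called genes spread over all 4 families. Cuffdiff tested 25 of the 51 members, of which the authors' deposited table called 7 higher and 2 lower in DKO. Among all 12133 tested genes, 4.3% were called higher and 3.06% lower. The called higher members were Mmp23, Mmp3, Adamtsl2, Adamts2, Timp2, Mmp2 and Adamtsl5, and the called lower members were Timp4 and Adamts3. Of these 9, 6 differed by less than 1.5-fold. Calls with a fold of at least 1.5 numbered 3 higher and 0 lower members, beside 2.13% and 0.659% of all tested genes. At a q of at most 0.01, 5 members were higher and 0 lower by the authors' Cuffdiff table, beside 2.74% and 1.58% of all tested genes. At an unadjusted p under 0.05 there were 9 higher and 3 lower members, beside 8.78% and 7.76% of all tested genes. The remaining 16 tested members were not called. Log2 ratios of DKO over Ctrl were above 0 in 20 of the 25 tested members, with a median of 0.14, beside -0.0042 over all tested genes. In bulk tissue, more cells of a type and more RNA per cell cannot be told apart.

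**Figure D1:**
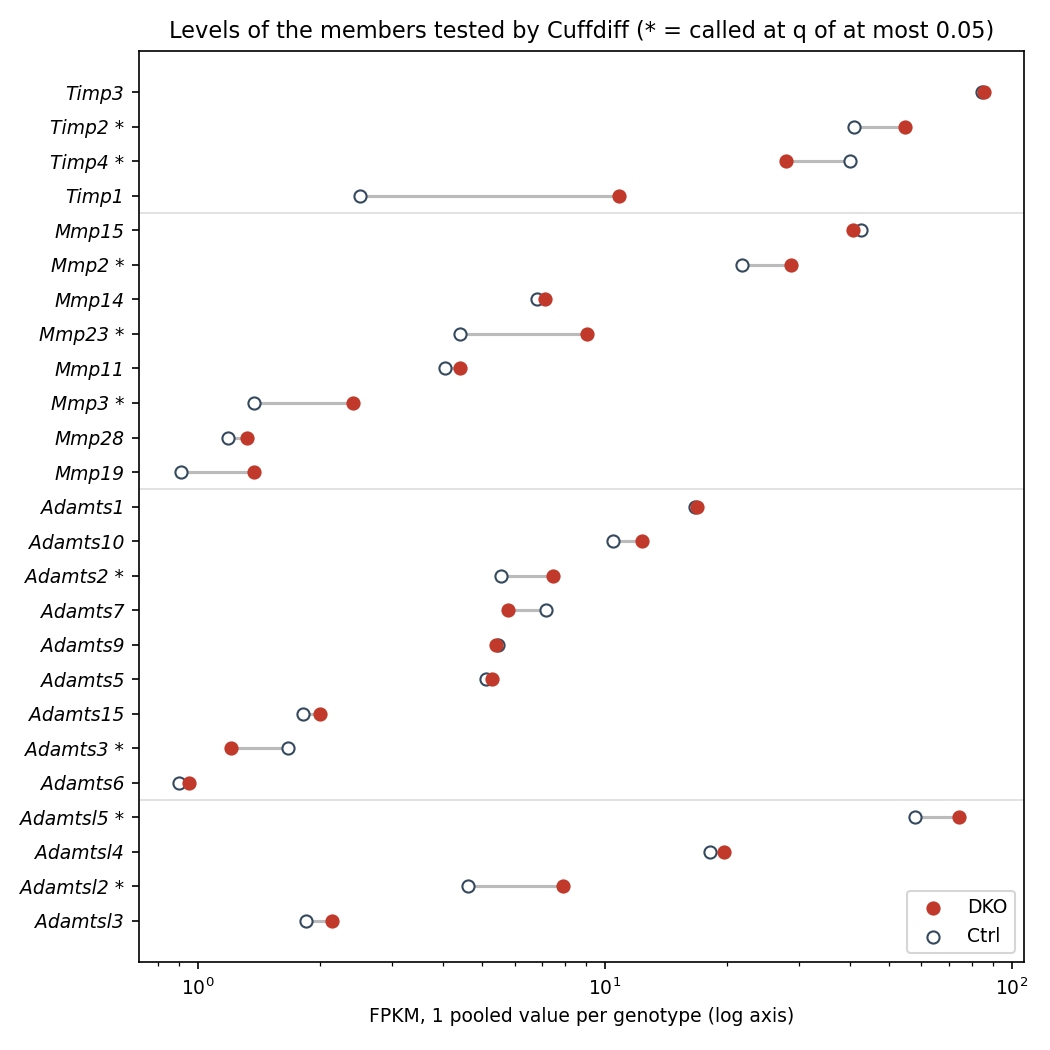
FPKM in DKO (filled) and Ctrl (open) ventricles on a log axis for the 25 members that Cuffdiff tested, grouped by family, with an asterisk at the 9 called genes. Timp1 shows the widest gap, at 10.9 FPKM in DKO and 2.50 FPKM in Ctrl, without an asterisk.

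The inhibitors differed in direction. Timp3, a TIMP that stays bound to the matrix and also blocks ADAM and ADAMTS proteases, had the highest level of all 51 members, at 85.4 FPKM in DKO and 84.6 FPKM in Ctrl. It was not called (q = 0.978 in the authors' deposited table). Timp2, which blocks MMPs and also takes part in the activation of pro-MMP2 by MMP14, rose to 54.7 FPKM in DKO, against 41.0 FPKM in Ctrl. That was a 1.33-fold difference with a q of 0.00158 by the authors' deposited table, at chr11:118162375-118216725 in mm9. Timp4, a TIMP known for its high level in heart, fell to 27.9 FPKM in DKO, against 40.1 FPKM in Ctrl. Its log2 ratio was -0.53, with a q of 0.0137 by the authors' deposited table.

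Timp1, an inducible TIMP of injured tissue, had the largest ratio of any tested member and was not called. It was at 10.9 FPKM in DKO and 2.50 FPKM in Ctrl, a 4.34-fold difference with a q of 0.0886 by the authors' deposited table. Both of its annotated transcripts pointed the same way. They share a start site and are close in length, and the split between them rests on Cufflinks' assignment of reads. The transcript of 887 bases was at 8.74 FPKM in DKO and 1.93 FPKM in Ctrl, and that of 890 bases at 2.12 FPKM in DKO and 0.574 FPKM in Ctrl. Neither was called, with q-values of 0.283 and 0.850 by the authors' deposited isoform table. The gene's single start site group and coding sequence have the gene's own FPKM and p, so they repeat its test. They were not called, and their q-values of 0.117 and 0.122 by the authors' deposited tables differ only through the adjustment. A difference of at least 4-fold, a threshold chosen after the Timp1 value was seen, with at least 1 FPKM in the higher genotype was found at 28 tested loci. Leaving out small RNAs and joined loci, 11 remained. Of these 11, 7 were called and Timp1 was among the 4 that were not.

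Summed over the family, the TIMPs were at 179 FPKM in DKO and 168 FPKM in Ctrl, a ratio of 1.06 that is a description without a test. The make-up differed more than the sum. Timp1 made up 6.07% of the sum in DKO and 1.49% in Ctrl, and Timp4 15.6% in DKO and 23.8% in Ctrl. Timp2 made up 30.6% in DKO and 24.4% in Ctrl. The Timp loci have overlapping neighbours. In the deposited table Timp1, Timp4 and Timp3 share their listed loci with the synapsin genes Syn1, Syn2 and Syn3, in whose introns they lie. Syn1 was at 0.196 FPKM in DKO and 0.157 FPKM in Ctrl, Syn2 at 2.35 FPKM in DKO and 1.40 FPKM in Ctrl, and Syn3 at 0.418 FPKM in DKO and 0.502 FPKM in Ctrl. These were well below the levels of the TIMPs beside them. Araf shares the Timp1 locus too, at 63.0 FPKM in DKO and 72.0 FPKM in Ctrl. The library kit does not mark strand, so reads of overlapping genes on opposite strands cannot be separated by strand.

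**Figure D2:**
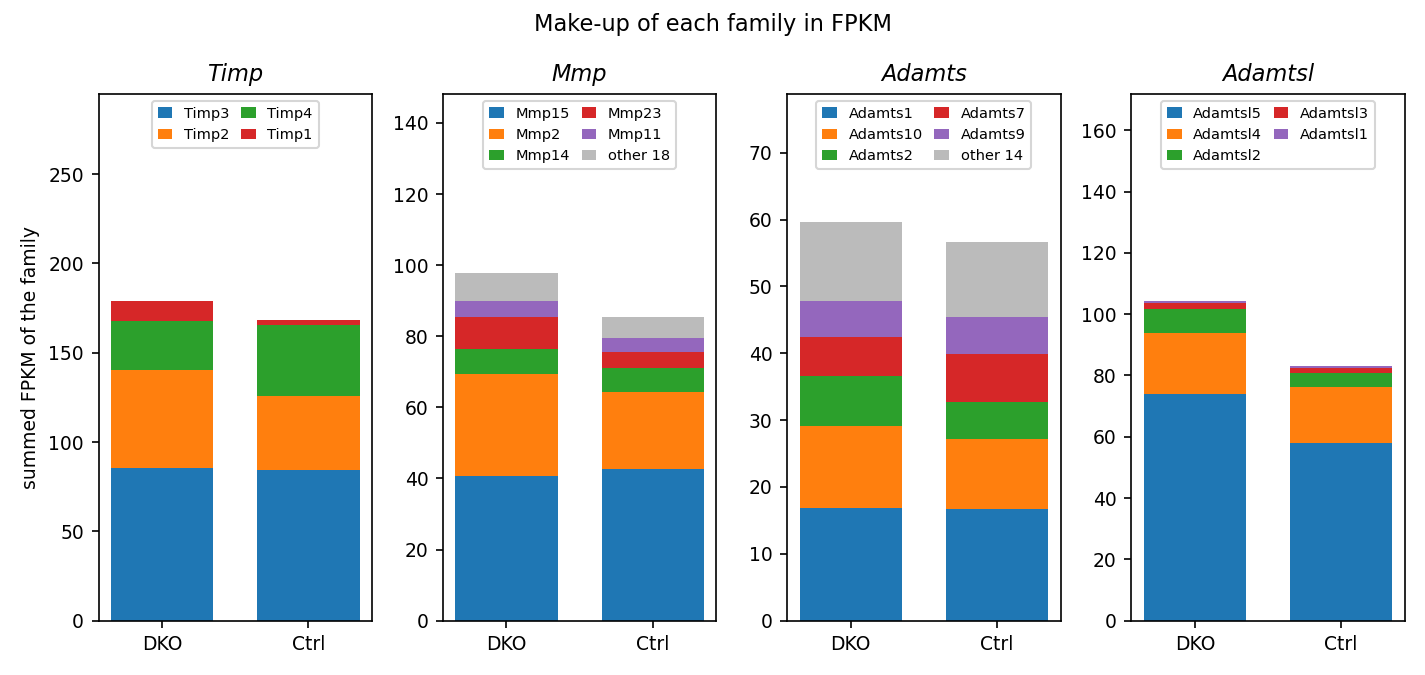
Summed FPKM of each family in DKO (left bar) and Ctrl (right bar) ventricles, split by member. In the Timp panel the Timp4 block is smaller and the Timp1 block larger in DKO, while the sums are 179 FPKM in DKO and 168 FPKM in Ctrl.

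The MMPs held 3 called genes, all higher, among 8 tested members. Mmp2, the gelatinase that cuts denatured collagen and basement membrane, rose to 28.6 FPKM in DKO, against 21.7 FPKM in Ctrl. This was a 1.32-fold difference with a q of 0.00158 by the authors' deposited table. Mmp2 lies in mm9 at chr8:95351227-95377319. Since Timp2 moved by a like amount, the ratio of Timp2 to Mmp2 was 1.91 in DKO and 1.89 in Ctrl. Mmp14, the membrane-type MMP that activates pro-MMP2, was not called at 7.14 FPKM in DKO and 6.81 FPKM in Ctrl (q = 0.914 in the authors' deposited table). Mmp9, the other gelatinase, was at 0.434 FPKM in DKO and 0.248 FPKM in Ctrl and was not tested.

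Mmp23 had the largest fold among the called members. It encodes a membrane-bound MMP that lacks the hemopexin domain of most family members. It rose to 9.04 FPKM in DKO, against 4.40 FPKM in Ctrl, a 2.05-fold difference with a q of 0.00158 by the authors' deposited table. Its locus is short, at chr4:155024764-155027493 in mm9, and holds 1 transcript of 1434 bases. Mmp23 ranked 11th among the 51 members by FPKM in DKO and 16th in Ctrl.

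Mmp3, or stromelysin-1, which cuts many matrix proteins and activates other proMMPs, rose to 2.41 FPKM in DKO, against 1.37 FPKM in Ctrl. That was a 1.76-fold difference with a q of 0.0102 by the authors' deposited table. Mmp11, a stromelysin that is activated inside the cell by furin, was not called at 4.40 FPKM in DKO and 4.06 FPKM in Ctrl. Mmp19 was at 1.38 FPKM in DKO and 0.910 FPKM in Ctrl, 1.51-fold, with a q of 0.358 by the authors' deposited table.

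The membrane-type MMPs held the highest MMP level but no call. Mmp15 was at 40.7 FPKM in DKO and 42.6 FPKM in Ctrl (q = 0.853 in the authors' deposited table). Of the 6 membrane-type members, Cuffdiff tested Mmp15 and Mmp14, and neither had an unadjusted p under 0.05. Mmp17 was at 0.932 FPKM in DKO and 0.979 FPKM in Ctrl, and Mmp16, Mmp24 and Mmp25 were under 0.2 FPKM in both genotypes. All MMPs together summed to 97.8 FPKM in DKO and 85.3 FPKM in Ctrl. The ratio of the summed TIMP level to the summed MMP level was 1.83 in DKO and 1.97 in Ctrl.

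Among mouse MMPs, 10 lie side by side on chromosome 9, at chr9:7272514-7699416 in mm9. Mmp3 was the only one of these that Cuffdiff tested. The others were low, at no more than 0.557 FPKM in either genotype, and Mmp1a, Mmp1b, Mmp7 and Mmp20 were listed at 0 in both. Mmp13, a collagenase, was at 0.557 FPKM in DKO and 0.538 FPKM in Ctrl. Mmp12, the macrophage elastase, was at 0.433 FPKM in DKO and 0.115 FPKM in Ctrl. Summed over the cluster, the level was 3.52 FPKM in DKO and 2.15 FPKM in Ctrl, most of it from Mmp3.

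The promoters of this cluster share a sequence that the choice of members did not use. AP-1, the dimer of Fos and Jun proteins, binds TGACTCA and TGAGTCA, which were searched for as TGANTCA, where N is any base. Both strands were searched. In RefSeq promoter windows of 300 bases (250 before the annotated start to 50 after it, build GRCm38.p6), 8 of the 10 cluster genes held TGANTCA. None of the 26 other members with a promoter did, and the share over all 27025 genes was 8.97%. In Mmp20 the match is TGAATCA, so TGACTCA or TGAGTCA was found in 7 of the 10 cluster genes, beside 5.95% of all genes. The stretches around it are shown to let the flanks be compared, on the strand of each gene, with the motif in capitals.
Mmp13: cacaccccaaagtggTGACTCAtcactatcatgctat
Mmp12: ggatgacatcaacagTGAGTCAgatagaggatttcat
Mmp1b: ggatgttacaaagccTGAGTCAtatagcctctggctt
Mmp3: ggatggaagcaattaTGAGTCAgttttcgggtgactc
Mmp1a: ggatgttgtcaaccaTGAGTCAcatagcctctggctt
Mmp10: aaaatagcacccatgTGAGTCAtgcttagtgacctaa
Mmp20: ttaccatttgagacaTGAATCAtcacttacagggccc
Mmp7: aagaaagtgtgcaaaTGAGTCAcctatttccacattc
In GRCm38.p6 these stretches lie at chr9:7272464-7272500 for Mmp13, chr9:7347315-7347351 for Mmp12, chr9:7388098-7388134 for Mmp1b, chr9:7445761-7445797 for Mmp3 and chr9:7464053-7464089 for Mmp1a. Those of Mmp10, Mmp20 and Mmp7 lie at chr9:7502264-7502300, chr9:7628121-7628157 and chr9:7692012-7692048. Mmp1b is on the minus strand and the others on the plus strand. In all 8 the motif began before the start site, from 95 bases upstream in Mmp20 to 35 bases upstream in Mmp13. Mmp8 and Mmp27 lacked it in their windows. Of the 8 genes that held the motif, 4 were listed at 0 in both genotypes. A match in a window describes the sequence and shows no binding.

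**Figure D3:**
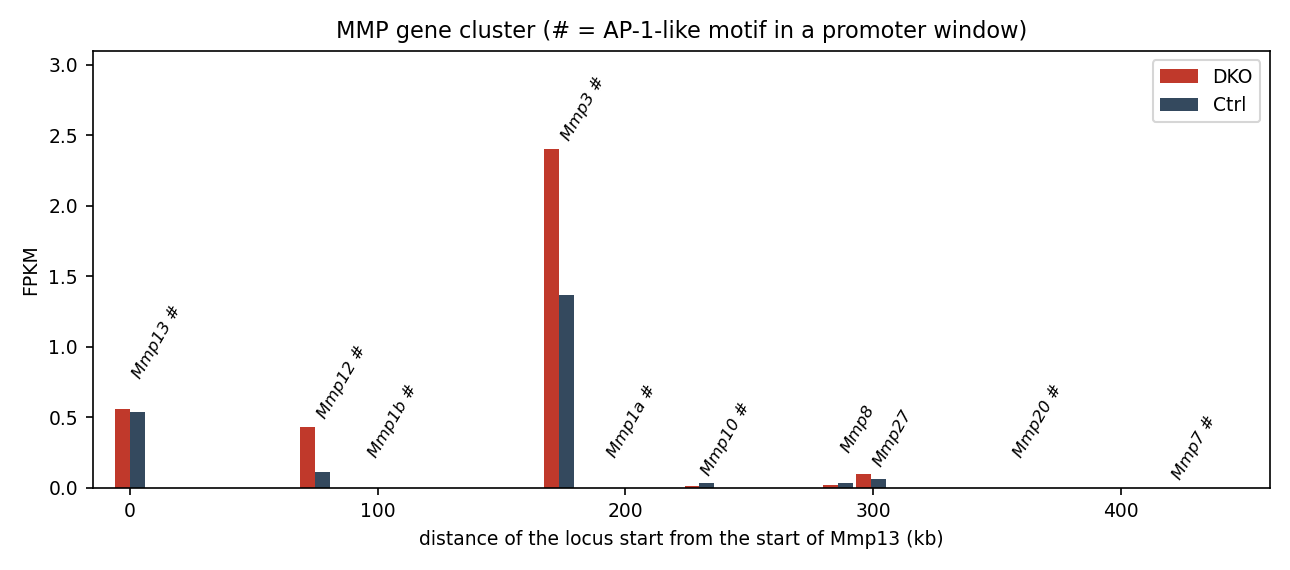
FPKM of the 10 MMP genes of the chromosome 9 cluster in DKO (left bar) and Ctrl (right bar) against the distance of each locus from that of Mmp13, with a hash sign at the 8 genes whose promoter window holds the AP-1-like motif TGANTCA. Mmp3 stands at 2.41 FPKM in DKO and 1.37 FPKM in Ctrl, and the other genes lie at or below 0.557 FPKM.

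The whole Mmp3 window is printed because Mmp3 was the called gene of the cluster. It lies on the plus strand at chr9:7445572-7445871 in GRCm38.p6, with the AP-1 motif in capitals, beginning 46 bases before the start site.
Mmp3: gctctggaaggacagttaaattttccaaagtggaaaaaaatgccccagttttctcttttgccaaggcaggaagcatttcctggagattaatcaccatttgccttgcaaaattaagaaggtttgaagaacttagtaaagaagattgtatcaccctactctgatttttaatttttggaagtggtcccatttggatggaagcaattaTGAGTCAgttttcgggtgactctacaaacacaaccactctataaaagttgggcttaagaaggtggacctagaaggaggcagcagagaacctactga
The Timp1 window is printed because Timp1 had the largest ratio of the tested members. It lies on the plus strand at chrX:20869916-20870215 in GRCm38.p6. The capitals mark, in order, ATTGTT and TGAGTAA.
Timp1: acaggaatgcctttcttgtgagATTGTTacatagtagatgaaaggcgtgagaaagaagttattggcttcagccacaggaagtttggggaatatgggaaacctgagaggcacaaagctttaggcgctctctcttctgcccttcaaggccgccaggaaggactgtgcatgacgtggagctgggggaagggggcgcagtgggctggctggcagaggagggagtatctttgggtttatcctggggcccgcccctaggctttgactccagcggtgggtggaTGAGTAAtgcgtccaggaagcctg
ATTGTT is the reverse complement of AACAAT, a core sequence that Sox proteins bind. AACAAT was found on either strand in 3 of 36 members, Timp1, Mmp7 and Mmp25, and in 12.2% of all genes. It was in none of the 8 called members with a promoter window. TGAGTAA, a close relative of the AP-1 motif that was searched for after the Timp1 window had been read, was found on either strand in Timp1 alone among the 36 members and in 3.09% of all genes.

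The ADAMTS proteases summed to 59.6 FPKM in DKO and 56.7 FPKM in Ctrl, a ratio of 1.05. Their 2 called genes belong to the procollagen N-propeptidases, which remove the amino-terminal propeptide of fibrillar procollagens, and went in opposite directions. Adamts2, the main enzyme for type I and type III procollagen, rose to 7.45 FPKM in DKO, against 5.56 FPKM in Ctrl, a 1.34-fold difference with a q of 0.00926 by the authors' deposited table. It lies at chr11:50415587-50617551 in mm9. Adamts3, which acts on procollagen and also matures VEGF-C, fell to 1.21 FPKM in DKO, against 1.67 FPKM in Ctrl, with a log2 ratio of -0.47 and a q of 0.0176 by the authors' deposited table. Adamts14, the remaining propeptidase, was at 0.428 FPKM in DKO and 0.505 FPKM in Ctrl and was not tested.

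Most of the difference in Adamts3 lay in its minor transcript. Its transcript of 7579 bases was at 1.21 FPKM in DKO and 1.35 FPKM in Ctrl, and was not called (q = 0.874 in the authors' deposited isoform table). The other, 3 bases longer at 7582 bases, was at 9.25e-04 FPKM in DKO and 0.315 FPKM in Ctrl and was not tested. Each was listed with its own coding sequence, of which the first was not called and the other not tested. The start site group that both share was called, with a q of 0.0240 by the authors' deposited table. Since these transcripts share nearly all of their bases, the split between them rests on Cufflinks' assignment of reads, and a gene total is the firmer value.

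The proteoglycan-cutting ADAMTS proteases held no called gene. Adamts1, the ADAMTS gene with the highest level, was at 16.8 FPKM in DKO and 16.7 FPKM in Ctrl (q = 0.980 in the authors' deposited table). Adamts5, the main aggrecanase of mouse cartilage, was at 5.28 FPKM in DKO and 5.10 FPKM in Ctrl. Of these 7 members Cuffdiff tested 4, and none was called or had an unadjusted p under 0.05. Adamts4, Adamts8 and Adamts20 were not tested, at no more than 0.336 FPKM. The substrate versican, Vcan, was called higher at 4.41 FPKM in DKO and 3.19 FPKM in Ctrl.

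Adamts9, a versican-cutting protease that is also needed for secretion and ciliary functions, had close gene totals and transcripts of opposite direction. The gene was at 5.40 FPKM in DKO and 5.47 FPKM in Ctrl. The transcript of 6036 bases was at 2.99 FPKM in DKO and 0.877 FPKM in Ctrl, and a transcript of 6119 bases that joins exons in a new way was at 2.41 FPKM in DKO and 4.59 FPKM in Ctrl. They start at different sites, and neither was called. Cuffdiff gave the shorter no test, and the longer had a q of 0.770 by the authors' deposited isoform table.

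Adamts7, which cuts cartilage oligomeric matrix protein (COMP), was at 5.78 FPKM in DKO and 7.17 FPKM in Ctrl, with a q of 0.0582 by the authors' deposited table. Its newly spliced transcript of 5270 bases was at 2.44 FPKM in DKO and 4.45 FPKM in Ctrl, while the annotated one of 5346 bases was at 3.33 FPKM in DKO and 2.71 FPKM in Ctrl. Neither transcript was called, with q-values of 0.522 and 0.866 by the authors' deposited isoform table. Comp itself was called higher, at 1.76 FPKM in DKO and 0.949 FPKM in Ctrl. Adamts10, which binds fibrillin, was at 12.3 FPKM in DKO and 10.5 FPKM in Ctrl (q = 0.198 in the authors' deposited table). Of its 4 transcripts, 2 had a higher and 2 a lower value in DKO, and none was called. The lower ones match non-coding RefSeq entries, and the single listed coding sequence has the FPKM of a higher one.

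**Figure D4:**
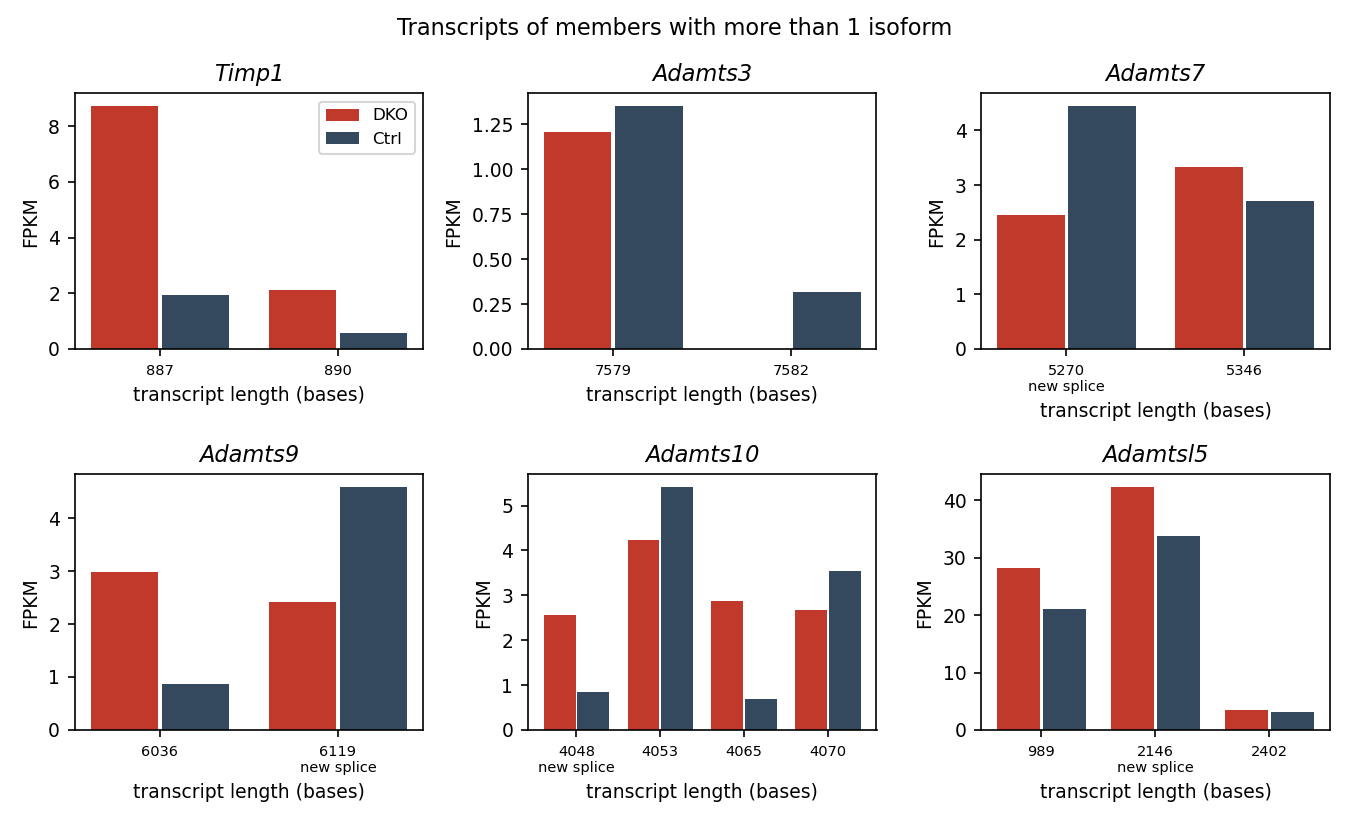
FPKM of each transcript in DKO (left bar) and Ctrl (right bar) ventricles for 6 members with more than 1 transcript, ordered by transcript length in bases, with newly spliced transcripts marked. Adamts7, Adamts9 and Adamts10 hold transcripts in both directions, while the Timp1 and Adamtsl5 transcripts all have a higher value in DKO.

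Of the 51 members, 42 had 1 transcript and 9 had several. In 4 of these 9, namely Adamts7, Adamts9, Adamts10 and Mmp28, the transcripts differed in direction. At the isoform level 6 member transcripts were called higher and 1 lower, against 1.9% and 1.12% of all tested isoforms. Start site groups gave 7 higher and 2 lower (2.95% and 1.99% of all tested groups), and coding sequences 6 higher and 1 lower (2.98% and 1.66% of all tested coding sequences). For a tested member with 1 transcript, these levels repeat the gene's test with the same p.

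All 4 tested ADAMTS-like members had a higher value in DKO, and 2 were called. Adamtsl2, which binds fibrillin and a latent TGF-beta binding protein and is mutated in human geleophysic dysplasia, rose to 7.87 FPKM in DKO, against 4.62 FPKM in Ctrl. That was a 1.70-fold difference with a q of 0.00158 by the authors' deposited table, at chr2:26934901-26964133 in mm9. Adamtsl5 had the second highest level of all 51 members, and rose to 74.1 FPKM in DKO, against 58.0 FPKM in Ctrl. Its difference was 1.28-fold, with a q of 0.0161 by the authors' deposited table.

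No single transcript of Adamtsl5 was called. A newly spliced transcript of 2146 bases was at 42.4 FPKM in DKO and 33.8 FPKM in Ctrl (q = 0.110 in the authors' deposited isoform table), and one of 989 bases was at 28.1 FPKM in DKO and 21.1 FPKM in Ctrl. The longest, of 2402 bases, was at 3.54 FPKM in DKO and 3.14 FPKM in Ctrl. Most of the Adamtsl5 level therefore lay in transcripts shorter than the longest annotated one. Adamtsl4, a fibrillin-binding protein linked to lens dislocation in humans, was at 19.7 FPKM in DKO and 18.1 FPKM in Ctrl (q = 0.686 in the authors' deposited table). Adamtsl3 was at 2.14 FPKM in DKO and 1.84 FPKM in Ctrl. Summed, the ADAMTS-like genes were at 104 FPKM in DKO and 83.0 FPKM in Ctrl, of which Adamtsl5 made up 71.1% in DKO and 69.8% in Ctrl.

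**Figure D5:**
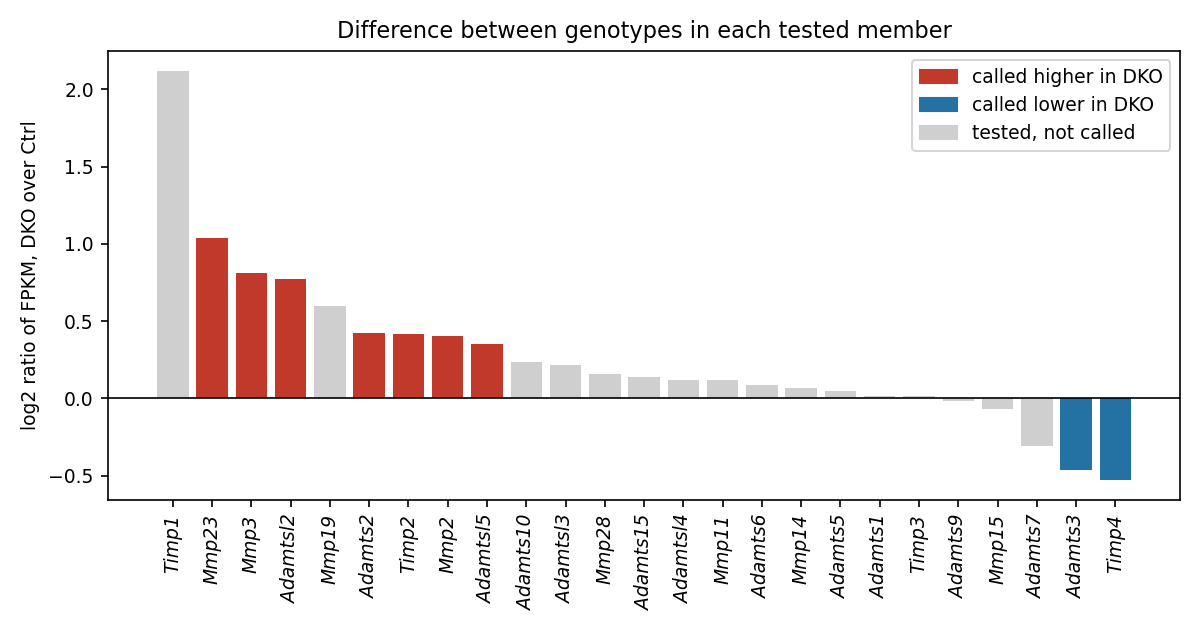
Log2 ratio of FPKM, DKO over Ctrl, for the 25 tested members in descending order, coloured by the call. Timp1 leads at 2.12 without a call, Mmp23 follows at 1.04, and Timp4 is lowest at -0.53.

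The 26 members that Cuffdiff did not test all lay under 1 FPKM in both genotypes. Of these, 16 had a higher and 6 a lower value in DKO, and 4 were listed at 0 in both. Adamts13, which cuts von Willebrand factor, and Adamts18 were listed at 0 in Ctrl, and at 0.00485 and 0.0516 FPKM in DKO. Since such values rest on few reads, the direction of single untested members is uncertain.

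Genes that activate, inhibit or are cut by these proteases were examined as lists. By number, the substrate lists gave the most calls, though the lists differ in length. Over all tested genes, 4.3% were called higher and 3.06% lower. Of 13 collagen genes, all tested, 7 were higher and none lower, with a median log2 ratio of 0.32, among them Col8a1 at 14.2 FPKM in DKO and 7.83 FPKM in Ctrl. Of 11 tested genes listed as proteoglycan and other ADAMTS substrates, 7 were higher and none lower, with a median of 0.31. The higher genes included the fibronectin gene Fn1, at 11.8 FPKM in DKO and 7.96 FPKM in Ctrl. This list is a loose one, and Ccbe1 and Eln, neither of them called, are not established substrates.

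Among astacin proteases and their enhancers, the enhancers of procollagen C-proteinase Pcolce and Pcolce2 were called higher, of 3 tested. Pcolce was at 59.1 FPKM in DKO and 39.3 FPKM in Ctrl. The C-proteinase itself, Bmp1, was not called at 17.1 FPKM in DKO and 14.8 FPKM in Ctrl. Of the plasminogen system, which activates several proMMPs, the activators Plat and Plau were not called and were at 9.41 and 5.65 FPKM in DKO, against 9.74 and 5.42 FPKM in Ctrl. Of 7 tested genes of the ADAM family, Adam19 was called higher, at 12.5 FPKM in DKO and 9.27 FPKM in Ctrl.

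Of 11 tested cell-surface partners, the endocytic receptor Lrp1, the hyaluronan receptor Cd44 and the TIMP1-binding tetraspanin Cd63 were called higher and none lower. Cuffdiff called none of 5 proprotein convertases, with none at an unadjusted p under 0.05 either. It called none of 6 tested genes listed as other matrix protease inhibitors. All 6 had a higher value in DKO, of which 2, Spint2 and the serpin-family gene Serpinh1, had an unadjusted p under 0.05. Of these 6, Reck, a membrane-anchored MMP inhibitor, was at 3.02 FPKM in DKO and 2.54 FPKM in Ctrl. Of 8 tested AP-1 and related regulators, Fosl2 was called higher, at 10.6 FPKM in DKO and 8.19 FPKM in Ctrl. At an unadjusted p under 0.05, 4 of the 8, with Fosl2 among them, were higher and 0 lower. The shares over all tested genes were 8.78% and 7.76%.

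Markers of other cell types of the ventricle were examined beside the members. Their calls stand beside 4.3% called higher and 3.06% called lower over all tested genes. Of 8 fibroblast markers, 6 were called higher and none lower, with values between 8.09 and 465 FPKM in DKO and between 7.55 and 376 FPKM in Ctrl, and their summed level was 778 FPKM in DKO and 608 FPKM in Ctrl. Of these, Col1a1, Col1a2, Col3a1 and Dcn stand in the substrate lists too. The other called markers were Lum, at 65.3 FPKM in DKO and 48.5 FPKM in Ctrl, and Dpt, at 73.1 FPKM in DKO and 59.1 FPKM in Ctrl. The fibroblast identity genes Pdgfra and Tcf21 were not called, at 10.5 and 8.09 FPKM in DKO, against 9.09 and 7.55 FPKM in Ctrl. At an unadjusted Cuffdiff p under 0.05, 7 of the 8 fibroblast markers, Pdgfra among them, were higher, beside 8.78% of all tested genes. Of 9 macrophage markers, 8 were called higher and none lower, and their summed level was 407 FPKM in DKO and 263 FPKM in Ctrl. Of 7 smooth muscle and pericyte markers, Acta2 was called higher, at 378 FPKM in DKO and 302 FPKM in Ctrl, and 6 were not called. Their summed level was 625 FPKM in DKO and 539 FPKM in Ctrl, and most of that difference came from Acta2. Rgs5, the next highest, was at 186 FPKM in DKO and 181 FPKM in Ctrl. The part of these cell types in the levels of the proteases and TIMPs was not tested.

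Cuffdiff called none of the 7 endothelial, 5 mast cell and 9 cardiomyocyte markers. At an unadjusted p under 0.05, 1 endothelial and 3 cardiomyocyte markers were lower in DKO, beside 7.76% of all tested genes. The summed level of endothelial markers was 379 FPKM in DKO and 403 FPKM in Ctrl, that of mast cell markers 8.50 FPKM in DKO and 8.43 FPKM in Ctrl, and that of cardiomyocyte markers 60316 FPKM in DKO and 69865 FPKM in Ctrl. The 7 neutrophil markers found summed to 5.48 FPKM in DKO and 4.82 FPKM in Ctrl. Cuffdiff tested 2 of them, S100a8 and S100a9, and called none, with none at an unadjusted p under 0.05. S100a8 was at 2.84 FPKM in DKO and 1.93 FPKM in Ctrl, and S100a9 at 2.45 FPKM in DKO and 2.75 FPKM in Ctrl. Mpo and Elane were not tested, at or below 0.0344 FPKM in both genotypes. Neutrophils are a known source of Mmp8, which was at 0.0181 FPKM in DKO and 0.0321 FPKM in Ctrl.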

How the data were processed

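Ventricular RNA of 4 DKO and 4 Ctrl mice was sequenced as single-end Illumina libraries, per the labels' protocols. TopHat2 2.0.9, Cufflinks 2.1.1 and Cuffdiff 2.1.1 were used with the mouse build mm9, per the submitters' processing notes. For the annotation and settings, the sources used here name none. Deposited tables of genes, isoforms, start site groups and coding sequences give the authors' FPKM, with 1 value for each genotype, beside their Cuffdiff p-values and q-values, per the file headers. The replicates are pooled, so no test across animals, interval or floor was computed. With 4 members at the smallest p of 5e-05, the q-values do not rank these.

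Ratios of DKO over Ctrl were computed from FPKM with no pseudocount. Positions count from 1. The members and lists were chosen with earlier results of these data known, and the roles, the 4-fold count, the narrower AP-1 search and the TGAGTAA search after their values were seen. Named in full were called members, all TIMPs, the 4 highest per family, and members at 0.5 FPKM or more with a log2 ratio of at least 1 either way. Counting was tested on simulated data. Promoter windows came from RefSeq (GRCm38.p6) and matched 36 of 51 members. Protein sequences were not used here, and 1 gene of the lists is not reported here. Python 3.11.15, pandas 2.3.3, numpy 2.4.6 and matplotlib 3.10.9 were used.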

Additional observations from a re-analysis of the deposited data

How the results depend on the processing

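No paired analysis was possible because the tables hold 1 pooled value per genotype, and for the same reason no animal could be left out. The 7 higher members became 3 with a fold of at least 1.5 (2.13% of all tested genes). The 2 lower members, Timp4 and Adamts3, became 0 at a q of at most 0.01 (1.58% of all tested genes) and 0 with a fold of at least 1.5 (0.659%), while Cuffdiff gave 3 lower members an unadjusted p under 0.05 (7.76% of all tested genes). Stricter thresholds keep a part of the calls by construction. Isoforms or coding sequences in place of genes left 1 lower member, Timp4. Leaving out members that share a listed locus with another gene, an alternative chosen after seeing the data, also left 1 lower member, Adamts3. The higher count stayed between 5 and 7 under the other settings, several of which could change it little. All higher members but Adamtsl5 have 1 transcript. For these, isoforms, start site groups and coding sequences repeat the gene's test with the same p, and only the adjustment differs. Centring on the median changes no q-value. The median log2 ratio ranged from 0.09 to 0.16. The ratio of the summed TIMP level was 1.01 without Timp1. Adamts10, at 0.23 for the gene, had a log2 ratio of -0.36 from its main isoform, which matches a non-coding RefSeq entry. Its single listed coding sequence, which was not called, had a log2 ratio of 2.08. Adamts7 had a log2 ratio of 0.30 from coding sequences, where its newly spliced transcript has none. Adamts3 and Adamtsl5 kept their direction in their main isoform without a call. Untested members are limited by depth, which is unknown here.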

Other observations

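Members that lie close together in the genome differed in level. Adamtsl2, at 7.87 FPKM in DKO and 4.62 FPKM in Ctrl, lies 69.8 kb from Adamts13, which was at 0.00485 FPKM in DKO and listed at 0 in Ctrl. Adamts15, at 1.99 FPKM in DKO and 1.81 FPKM in Ctrl, lies 20.1 kb from Adamts8, which was at 0.299 FPKM in DKO and 0.242 FPKM in Ctrl. Adamts1 and Adamts5 lie 55.0 kb apart on chromosome 16, and neither was called. Mmp28 had a transcript of 2311 bases at 1.06 FPKM in DKO and 0.604 FPKM in Ctrl and one of 2269 bases at 0.266 FPKM in DKO and 0.581 FPKM in Ctrl, and neither was called.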
